A study of Homo sapiens with 4 samples.

Results

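Rarely included exons with deep coverage are cassette exons that most transcripts holding a given pair of flanking exons leave out. They lie in places where the splicing machinery was seen many times. Of the 49507 distinct exons in a table of skipped exon events, 3305 were of this kind. They were chosen by their measured reads and levels: a mean of at least 100 junction reads over the 4 libraries, a mean inclusion level under 10%, and a length above 50 and below 400 nt. The inclusion level is the share of transcripts with the exon among those that hold a given pair of flanking exons. It is estimated from inclusion and skipping reads, each scaled to the length over which such reads can fall. Where several rows of an exon met these limits, the one with most reads was used, so a deeper row outside the limits can exist. Choosing the deepest row before applying the limits gave 3297 exons. The inclusion level, the depth and the length are descriptions here and carry no test. The exon closest under the inclusion limit was one of RP11-220I1.1, a gene named only by its clone, at 9.97%, and the closest exon outside was one of GINS3, a subunit of the replication complex GINS, at 10.03%. At the depth limit, a GIGYF2 exon lay inside with 100 reads and a CD99L2 exon lay outside with 99.75 reads.

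Splicing removes introns and joins exons, and an exon can be passed over so that its neighbours are joined directly. An included exon that brings a stop codon into the reading frame ahead of a later exon junction usually marks the transcript for nonsense-mediated decay, a pathway that degrades such messages. Genes of splicing factors often carry exons of this kind, called poison exons, and some use them to hold down their own level. Other rarely used exons come from transposed elements such as Alu, whose antisense copies in introns hold sequences that resemble splice sites.

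The study used 293T cells, a human embryonic kidney line transformed with the large T antigen, in 2 groups of 2 libraries each. The group SNORD89_ASO received a gapmer antisense oligonucleotide (ASO), a modified DNA strand that directs RNase H to its target RNA, aimed at the small nucleolar RNA SNORD89. It was given at 70 nM by lipid transfection, with fresh medium after 24 hours and lysis for RNA after 48 hours. The group no_ASO is marked as untreated, no control ASO is named, and poly(A) RNA was sequenced from both groups. Comparing the groups asks which exons are spliced differently after SNORD89 is targeted. The table of exon events compares a first with a second set of libraries and does not name which set was treated, so a direction is stated only between these sets. Values are given for both libraries of the first set and then, after "against", for both of the second. The labels describe the libraries as biological replicates, and a library is called here by its place in the table. SNORD89 has 0 rows in the table and its host gene RNF149 has 0 of the exons described here, so the depletion was not checked, and the table holds no gene levels with which to check the cell type.

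Junction reads over all events numbered 38613055 and 39012939 against 42868431 and 43929373. Library 2 of the second set stood apart for these exons: 1380 of the 3305 (41.8%) had no inclusion read in it, against 483, 586 and 711 in the other libraries. It was also the only library without an inclusion read for 552 exons, against 48 to 107 elsewhere. Over exons with enough reads to compare, pairs of libraries that included it differed by a median of 5.93 to 6.76 times binomial sampling, and the other pairs by 2.76 to 3.25 times. Results that rest on this library are given with and without it.

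The exons printed first carry a stop codon that inclusion places in frame, at positions from base 10 of the RPL29 exon to base 79 of the TRA2B exon. For 2544 of the exons the matching transcripts of GENCODE release 29 show the skipping form inside a coding sequence, so the exon could be inserted into that reading frame. The sequences are read 5′ to 3′ from the first base of the exon up to the first stop codon in frame, which is in capitals, and they come from the release 29 transcripts.
SNRNP70 exon of 60 nt: ccaccacgcagctggcttgcagcTGA
LUC7L3 exon of 126 nt: ggcagaagataagattattggacTGA
LUC7L3 exon of 193 nt: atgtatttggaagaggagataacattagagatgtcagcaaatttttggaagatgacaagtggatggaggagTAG
TRA2B exon of 276 nt: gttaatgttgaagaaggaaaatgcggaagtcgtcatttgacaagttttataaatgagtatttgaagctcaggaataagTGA
HNRNPL exon of 70 nt: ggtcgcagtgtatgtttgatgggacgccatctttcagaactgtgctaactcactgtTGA
TIAL1 exon of 59 nt: gtgtcaccaccccaaTAA
RPL29 exon of 85 nt: cctgaagtgTAA
GALM exon of 71 nt: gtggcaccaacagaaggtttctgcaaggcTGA
CRY1 exon of 120 nt: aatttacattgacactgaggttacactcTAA
SLC25A15 exon of 166 nt: gttaacagagagtcccTGA
ISY1 exon of 122 nt: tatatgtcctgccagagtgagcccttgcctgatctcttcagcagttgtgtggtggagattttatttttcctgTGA
The first 6 belong to genes that act in splicing, RPL29 to the large ribosomal subunit, and the last 4 to genes whose exons were called between the sets. Inclusion of 1743 of the 2544 exons (68.5%, 95% Wilson interval 66.7 to 70.3%) placed such a stop in frame. The stop began at base 34 of the exon in the median, and at or before base 30 in 798 of the 1743. These include 37 stops whose first base lies in the upstream exon. Another 422 exons kept the frame without a stop, and 379 shifted the frame with no stop inside the exon.

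The same count was made for other deeply covered exons of this length. An in-frame stop on inclusion was found in 24.2% of 1148 exons with inclusion between 10 and 90% (interval 21.8 to 26.8%) and in 13.9% of 1747 exons above 90% (12.3 to 15.6%). By length alone, 37.3% of the rarely included exons were divisible by 3, against 46.5% and 40.0% of the others. Among exons divisible by 3, which cannot shift the frame, 56.6% of 972 rarely included ones held a stop in frame, against 11.5% of 714 and 3.59% of 1142. Of the 3186 exons found in release 29 (96.4%), 1119 (35.1%) were annotated only in transcripts marked for nonsense-mediated decay, against 6.74% and 2.67% of the exons of higher inclusion. Another 657 (20.6%) occurred only in transcripts with no coding sequence, 634 (19.9%) in untranslated regions of coding transcripts, and 541 (17.0%) were coding over their whole length, against 68.3% and 88.9%. No test was made of these shares, whose intervals treat exons as independent although 548 of the 3305 overlap another of them. For exons above 90%, the skipping form seldom occurs in a coding transcript, so the frame could be read for only 7.92% of them.

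**Figure D1:**
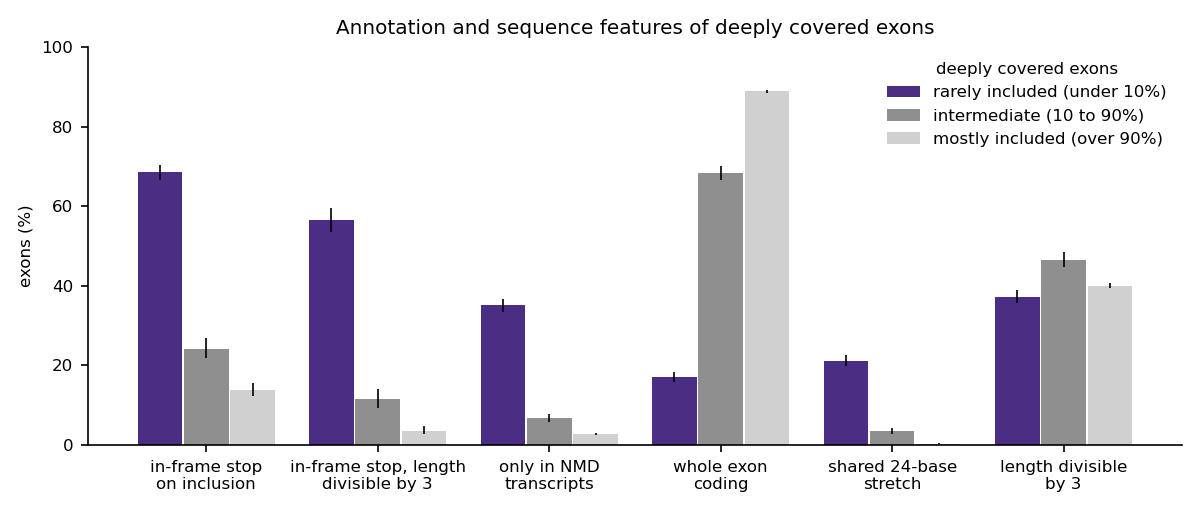
Share of deeply covered exons (y axis, %) with each of 6 features, for exons with mean inclusion under 10%, 10 to 90% and over 90%; bars show the share and lines its 95% Wilson interval. In-frame stops reach 68.5% in the rarely included exons and 24.2% and 13.9% in the others, whereas whole coding exons run the other way.

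Many of the exons held sequence that recurs across the genome's transcripts. A stretch of 24 bases found in transcripts of at least 20 other genes occurred in 675 of 3186 exons (21.2%, interval 19.8 to 22.6%), against 3.43% of exons of intermediate inclusion and 0.381% of those above 90%. The share was similar in whole coding exons (22.4%), exons of decay transcripts (21.7%) and exons without coding sequence (20.5%), and was 13.6% in exons that were coding in part. Neither the source of these stretches nor their part in splicing was tested. Exons with a shared stretch and the other exons had an in-frame stop in 64.5% and 69.6% of cases and a median inclusion level of 0.759% and 0.898%.

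The median inclusion level was 0.855%, with 10% of them under 0.0841% and 10% above 5.18%. By level, 392 exons lay under 0.1%, 1374 from 0.1 to 1%, 1181 from 1 to 5% and 358 from 5 to 10%. The in-frame stop share was 71.5%, 70.4%, 67.6% and 59.4% in these 4 classes. The median depth was 307.5 reads per library, and the exons lay in 2122 genes, of which 1390 had 1 such exon. HDLBP, which encodes the RNA-binding protein vigilin, had most with 9, followed by CMC2, a mitochondrial cytochrome oxidase assembly factor, with 8. Inclusion reads were seen in all 4 libraries for 1590 exons and in a single library for 490.

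**Figure D2:**
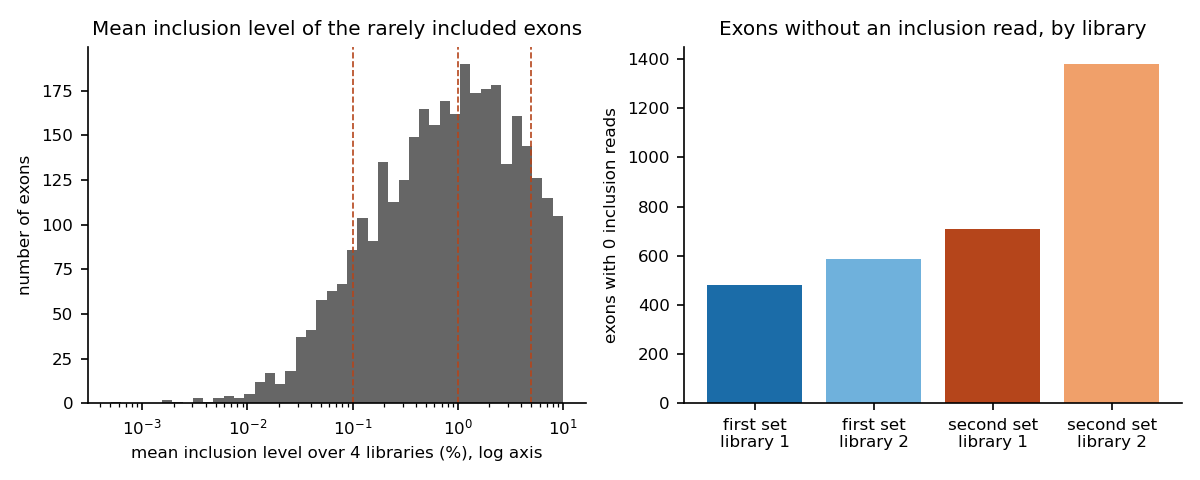
Left, number of exons (y axis) by mean inclusion level over the 4 libraries (x axis, %, log scale), with dashed lines at 0.1, 1 and 5%. Right, number of the 3305 exons without an inclusion read in each library, which is 1380 in library 2 of the second set and 483 to 711 in the others.

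Rare inclusion belonged to a pair of flanking exons, not always to the exon. For 408 exons another row with other flanks had a mean of at least 20 reads, and in 240 of these the exon reached 10% or more there, in 112 above 50%. FAM189B, a membrane protein gene, had the deepest such row: its exon of 111 nt at chr1:155223875-155223985 (hg19) had a mean level of 2.80% in the row used here and 98.0% in the other. The row used here held a mean of 270.75 reads, and the other 720.75. In the row used here the exon's inclusion was 2.62 and 2.47% against 1.10 and 5.00%. In the other row it was 97.8, 97.6, 99.4 and 97.0% in the same order. TCF3, a transcription factor gene of the E-protein family, had an exon of 201 nt at 5.86% and at 98.2% in its other row.

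The 10 deepest exons lay in genes of ribosomal proteins and of RACK1, all with a mean level under 0.1%. The RPL29 exon of 85 nt (chr3:52028789-52028873, minus strand, hg19), printed above, had an inclusion level of 0.0286 and 0.0305% against 0.0352 and 0.0242%, from a mean of 36011 reads. The 4 libraries lay close together and the sets overlapped. RPL35, another large subunit gene, had an exon of 80 nt at 0.0428 and 0.0547% against 0.0570 and 0.104%. Both levels of the second set were the higher ones, and the authors' deposited table gives it an FDR of 1. No exon with a mean level under 1% was called there. RPS18, a small subunit gene, had a 158-nt exon included at 0.0215 and 0.0141% against 0.0176 and 0.00945%, from 10 to 18 inclusion reads a library, with overlapping sets. RPS19, another small subunit gene, had an exon of 115 nt with the lowest mean level of all 3305, at 0.000585%: 2 inclusion reads in library 1 of the second set among 48241 reads there and 0 in the other 3 libraries. An RPS15 exon of 221 nt reached 0.0757 and 0.105% against 0.0677 and 0.0879%. GNB2L1, which encodes the ribosome-bound scaffold RACK1, had a 152-nt exon at 0.0108 and 0.00355% against 0.00305 and 0.00468%, with 2 to 6 inclusion reads a library. Over the 26 exons in 22 genes of cytosolic ribosomal proteins the median inclusion was 0.0243%, against 0.855% for all, and 15 of the 22 exons with a readable frame held a stop in frame.

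Most exons with many inclusion reads gave close levels in the 4 libraries. In 42 exons of 37 genes every library held at least 100 inclusion reads, and the highest library was a median of 1.41 times the lowest. The ratio was within 1.5 in 30 of the 42. The minimum of 100 leaves out exons that fall below it in any library. Of the 63 exons with a mean of at least 100 inclusion reads, the ratio was within 1.5 in 40. HNRNPA1 encodes an abundant splicing repressor that binds nascent RNA. Its exon of 156 nt at chr12:54676863-54677018 (plus strand) keeps the frame without a stop and codes for part of the glycine-rich domain, unlike the stop-bearing exons. Its inclusion level was 8.16 and 8.15% against 8.43 and 7.67%, from 2584, 2555, 3314 and 3462 inclusion reads. The second set enclosed the first, the difference was 0.109 percentage points, and the authors' deposited table gives an FDR of 1. TIMM17B, part of the inner-membrane translocase of mitochondria, had a 150-nt exon at 6.95 and 7.08% against 7.57 and 7.43%, the closest set of 4 levels among the 42. NONO, a paraspeckle protein, had a 114-nt exon in its untranslated leader at 4.75 and 5.00% against 4.96 and 5.29%. SNRPD2, a core protein of spliceosomal particles, had a 115-nt exon at 1.51 and 1.72% against 1.58 and 1.68%. One of the 42 had an FDR under 0.05 in the authors' deposited table, an exon of CCT4 described further on.

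Between the sets, 184 of the 3305 exons (5.57%) had an FDR under 0.05 in the authors' deposited table, where 5.72% of the 54503 events with a mean of at least 20 reads did. Of these, 101 were higher in the first set and 83 lower, against backgrounds of 3.03% and 2.68%. The shares of rarely included exons called are near those of all events. Differences were small in absolute size, with a median of 3.53 percentage points among the 184 and 0.385 among the rest, but 163 of the 184 differed by at least 2-fold in the ratio of inclusion to skipping. Only PPP2R5A and IDS, which encodes a lysosomal sulfatase, had both a call and a difference of at least 10 points (0.0605%), against a background of 2.71%, and the rule's ceiling on the mean level limits how far an exon can differ. Every call lay at a mean level above 1%: 137 of 1181 exons from 1 to 5% and 47 of 358 from 5 to 10%, and 0 of the 392 and 1374 in the lower classes. Exons with a mean under 5 inclusion reads a library made up 1637 of the 3305 and 6 of the 184 calls. At a mean of at least 100 inclusion reads, 1 of 63 exons was called. The exons under 1% that are described here all had a deposited p-value at its upper limit, which can also stand for a value not computed. The absence of calls under 1% is therefore not read as an absence of difference. Whether depth or another feature limited the calls was not tested.

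**Figure D3:**
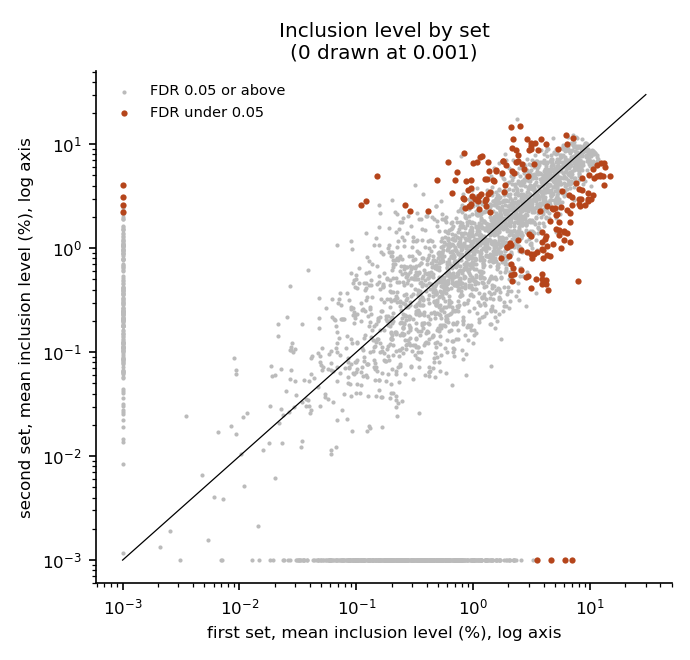
Mean inclusion level of each of the 3305 exons in the first set (x axis, %) and the second set (y axis, %), both on log scales with 0 drawn at 0.001%. The 184 exons with an FDR under 0.05 in the authors' deposited table are coloured, and the line marks equal levels; coloured points lie above 1% in at least 1 set.

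For 1021 exons (30.9%) the sets were fully apart in inclusion level, against a background of 22.8%. Among other deeply covered exons of this length, the share was 34.4% at intermediate inclusion and 20.7% at the highest inclusion. With 2 libraries a set, levels often fall apart by chance, and the share was not tested. A share above the background therefore does not mark out the rarely included exons. Of the 1021, 683 were above and 338 below the second set. Over all events tested the split ran the other way, with 5065 above and 7352 below. Without library 2 of the second set, where a single library stands for that set and more exons are apart, the split of the rarely included exons was 1044 above and 1017 below, and without library 1 it was 1385 and 850. The median log2 ratio of inclusion to skipping reads, first against second set, was 0.24 over the rarely included exons and -0.19 over all events tested. The median over the rarely included exons was 0.08 without library 2 of the second set and 0.54 without library 1. Over all events tested it was 0.07 and -0.23, so the medians were close without library 2. The split of all events was then 16935 above and 11714 below, and 12802 and 14276 without library 1. For the 1590 rarely included exons with inclusion reads in every library, the median over all 4 libraries was -0.0017, with 314 above and 275 below. Library 2 of the second set was the extreme one in 72 of the 101 higher calls and 69 of the 83 lower calls. Without it, all 101 higher calls kept their direction and 30 shrank by more than 1.5 times. Of the 83 lower calls, 70 kept their direction, 11 reversed, 2 came to 0, and 53 shrank by more than 1.5 times or turned.

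Exons are named below by the largest log2 ratios among calls with sets apart, 8 in each direction. Those described here are 6 of the 8 higher in the first set and all 8 lower. DDX31, a nucleolar RNA helicase gene, had a 104-nt exon (chr9:135544957-135545060) at 5.08 and 7.06% against 0 and 0%, where the second set held 173 reads. The sets did not overlap, and 3 inclusion reads over the second set would make the first at least 6.01-fold higher. In the authors' deposited table the difference is 0.061 and the FDR 0.000312. In TRRAP, a scaffold of histone acetyltransferase complexes, a 54-nt coding exon (chr7:98543370-98543423) was at 3.48 and 5.86% against 0 and 0%, but the second set held 60 reads and the bound, also against 3 reads, is only 1.32-fold. Its FDR is 0.0451 in the authors' deposited table.

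ITFG3, a gene named for FG-GAP repeats, had inclusion reads in every library. Its leader exon of 154 nt (chr16:298243-298396) was included at 10.2 and 5.56% against 0.488 and 0.488%, 16.1-fold higher on average. The sets were far apart, although each library of the second set held 1 inclusion read, and the FDR was 1.73e-05 in the authors' deposited table. GALM encodes galactose mutarotase, and its 71-nt exon (chr2:38925508-38925578) with the stop printed above was at 4.27 and 4.38% against 0.800 and 0%. It was 10.8-fold higher in the first set and 5.41-fold without library 2 of the second set, which leaves 2 inclusion reads there. Its FDR was 0.00544 in the authors' deposited table. DAG1, the dystroglycan gene, had a 120-nt leader exon (chr3:49526059-49526178) at 4.41 and 6.81% against 2.01 and 0%, with an FDR of 0.000945 there, and its 5.58-fold became 2.79-fold without library 2 of the second set. ANO10, an anoctamin membrane protein gene, had a 117-nt coding exon (chr3:43592964-43593080) at 1.91 and 5.92% against 1.01 and 0%, with an FDR of 0.0333 there, from 0 to 10 inclusion reads a library. Its difference of 3.41 points became 1.41 without library 2 of the first set and 5.42 without library 1.

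Of the 8 strongest calls lower in the first set, 3 had like levels in both libraries of the second. YAF2, a gene of a Polycomb partner protein, had a 100-nt exon (chr12:42592938-42593037, minus strand) at 1.23 and 0.432% against 8.48 and 8.05%, from 2, 1, 11 and 12 inclusion reads. The second set was 9.94-fold higher, and 19.2-fold and 6.71-fold without library 1 or 2 of the first set. The sets lay apart, and the authors' deposited table gives an FDR of 0.000114. CRY1, a repressor in the circadian clock, had a 120-nt exon (chr12:107466713-107466832, minus strand), printed above to its stop, at 0.925 and 0.295% against 6.67 and 6.76%. The second set was 11.01-fold higher, from 3 and 1 inclusion reads in the first, and 22.7-fold and 7.26-fold without library 1 or 2 of the first. Its FDR was 0.000219 in the authors' deposited table. ARMCX6, an armadillo-repeat gene of the X chromosome, had a 79-nt exon (chrX:100872282-100872360) at 0.220 and 0% against 2.38 and 2.79%, with an FDR of 0.0231 there. Without library 2 of the second set these 3 differences did not shrink by more than 1.5 times.

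In the other 5, library 2 of the second set was the highest. PPP2R5A, a regulatory subunit of protein phosphatase 2A, had a 118-nt exon (chr1:212480125-212480242) at 2.20 and 1.99% against 2.67 and 26.7%. Library 1 of the second set lay close to the first set, and the difference of -12.6 points became -0.578 without library 2. SLC25A15, the mitochondrial ornithine carrier gene, had the 166-nt exon printed above (chr13:41376271-41376436) at 0 and 0% against 1.06 and 7.09%. Against 3 inclusion reads over the first set the second was at least 9.79-fold higher, and its FDR was 0.000904 in the authors' deposited table, and the difference of -4.08 points became -1.06 without library 2. ISY1, a protein of the catalytic spliceosome, had a 122-nt exon (chr3:128862911-128863032) at 0 and 0% against 0.450 and 3.99%, at least 8.84-fold higher in the second set, with a difference of -2.22 points that became -0.450. MPP6, a membrane scaffold gene, had a leader exon (chr7:24659671-24659839) that was at 0.300 and 0% against 2.67 and 7.32%, and its difference of -4.85 points became -2.52. DPP3, a dipeptidyl peptidase gene, had an exon (chr11:66250522-66250640) that was at 0 and 0.243% against 1.55 and 4.12%, and its difference of -2.71 points became -1.42. ISY1 and PPP2R5A had FDRs of 0.0439 and 0.00143 in the authors' deposited table. The exons of PPP2R5A, DPP3 and DAG1 hold a 24-base stretch found in transcripts of 980, 819 and 46 other genes. Whether such stretches affected the placement of reads was not tested.

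**Figure D4:**
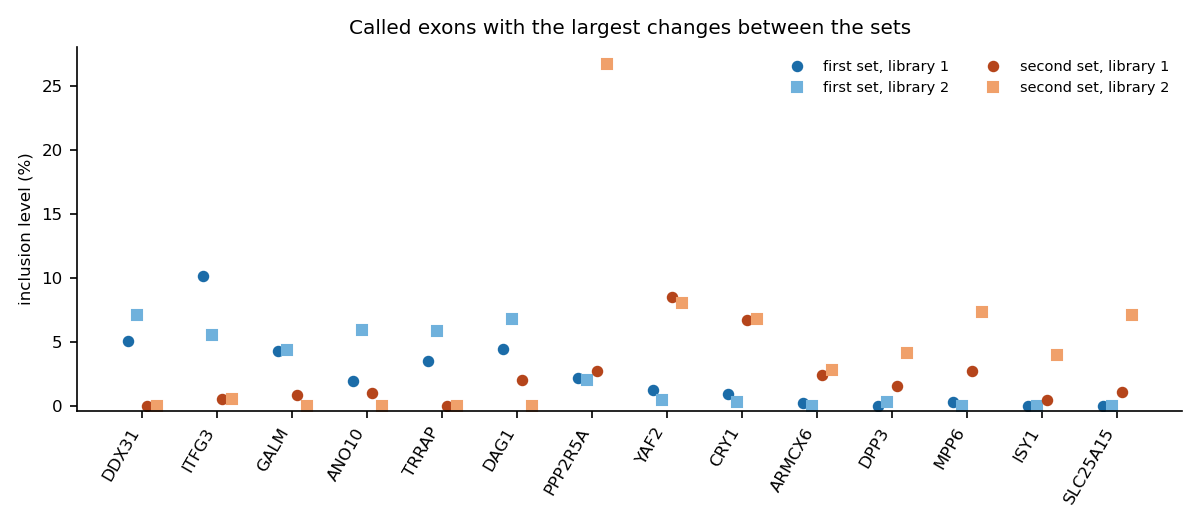
Inclusion level (y axis, %) in each of the 4 libraries for 14 of the called exons with the largest log2 ratios, 6 higher and 8 lower in the first set, 1 point a library, blue shades for the first set and orange shades for the second. PPP2R5A stands at 26.7% in library 2 of the second set alone, whereas YAF2 and CRY1 lie between 6.67 and 8.48% in both libraries of that set.

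A quasi-binomial model, which takes the spread between libraries of a set as its error, called 1 of the 3305 exons at an adjusted p under 0.05, and no other of the 54503 events (background 0.00183%). It was the 234-nt exon of CCT4, a subunit of the TRiC chaperonin that folds actin and tubulin, at chr2:62115159-62115392 on the minus strand. Its inclusion was 5.42 and 7.16% against 9.98 and 9.98%, from 579, 786, 994 and 855 inclusion reads. Both libraries of the second set exceeded both of the first, and the second set was 1.59-fold higher, with an adjusted p of 0.00118 by this model. The prior of the model was set after the table was seen, and with a prior from all events the call was lost, with 0.347 as the smallest adjusted p among these exons; the authors' deposited table lists an FDR of 0.000417. At an unadjusted p under 0.05 the model held 148 of the 3305. Without library 1 of the first set the model called 0, and without library 1 of the second it called 73. The adjusted p was 0.863 for each of these named exons, with unadjusted values from 0.00221 for SLC25A15 to 0.185 for TRRAP. A limma fit with trend called 0 of the 3305, where 121 had an unadjusted p below 0.05. A limma fit with precision weights called 45.

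Genes of splicing regulators held 79 of the exons, in 43 genes, and 42 of the 57 with a readable frame carried an in-frame stop. Of the 79, 4 (5.06%) had an FDR under 0.05 in the authors' deposited table, beside 5.57% of all 3305 exons. All 4 were higher in the first set. They are 2 exons of LUC7L3, a partner of the U1 particle, 1 of SON, a nuclear speckle protein, and 1 of TIAL1, a U-rich RNA-binding protein, and were named after their values were seen. The LUC7L3 exon of 193 nt was at 5.35 and 4.20% against 4.10 and 0.688%, and its difference of 2.38 points became 0.675 without library 2 of the second set. The LUC7L3 exon of 126 nt was at 5.91 and 2.61% against 3.05 and 2.02%, where the sets overlap and the difference of 1.73 points became 0.0786 without library 1 of the first set. SON was at 7.87 and 7.35% against 4.85 and 3.54% in an 80-nt exon, with sets apart, and the authors' deposited table lists an FDR of 0.0107. TIAL1 was at 2.41 and 3.55% against 1.25 and 1.49% in its 59-nt exon, with an FDR of 0.0331 there, and its difference of 1.60 points became 1.03 without library 2 of the first set.

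Most other regulators showed levels without a call. TRA2B, an activator known to hold down its own level through a poison exon, had the 276-nt exon printed above at 3.71 and 3.19% against 5.41 and 4.11%. Both libraries of the second set were higher, and its FDR was 0.0983 in the authors' deposited table. SRSF6, a serine- and arginine-rich activator, had a 268-nt exon with an in-frame stop at 9.13 and 9.37% against 8.26 and 6.64%, with sets apart and an FDR of 0.41 there. HNRNPL, a binder of CA repeats, had its 70-nt exon at 1.64 and 1.82% against 1.42 and 1.89%, and HNRNPDL, a relative of HNRNPD, a 105-nt exon at 2.95 and 3.53% against 2.91 and 3.08%, both with overlapping sets. HNRNPC, which binds U-rich tracts, had 4 such exons in untranslated regions. The one of 163 nt was at 2.19 and 2.60% against 2.79 and 2.14%, and the one of 88 nt at 0.412 and 0.607% against 0.776 and 0.938%, each with FDR 1 in the authors' deposited table. The 88-nt exon lies under 1%, where that table has no call. Its unadjusted p was 0.0191 and its adjusted p 0.863 by the quasi-binomial model. By limma with precision weights its adjusted p was 0.0438. HNRNPD was at 0.748 and 0.673% against 0.988 and 0.317% in a 107-nt exon, and PCBP2, a poly(C)-binding protein, at 0.213 and 0.0727% against 0.0419 and 0.101% in one of 95 nt. SRSF9 held at most 5 inclusion reads in any library.

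Core spliceosome genes held 52 exons in 35 genes. Of these exons, 8 (15.4%) had an FDR under 0.05 in the authors' deposited table, beside 5.57% of all 3305 exons. In 6 the first set was above the second, and in 2 it was below. SNRNP70 encodes a protein of the U1 particle, and 2 of its exons, of 60 and 72 nt, share their start and their skipping reads and count as 1 site. The 60-nt form (chr19:49605371-49605430) was at 2.09 and 2.06% against 1.51 and 0.637%, from 112, 101, 101 and 48 inclusion reads. The sets did not overlap, the FDR was 0.000921 in the authors' deposited table, and the difference of 0.999 points became 0.561 without library 2 of the second set. The 72-nt form was at 1.86 and 1.62% against 0.983 and 0.640%, with an FDR of 0.00253 there. SF3B3, of the U2 particle, was at 2.61 and 1.86% against 1.13 and 0%. CWC25 was at 14.0 and 7.58% against 7.91 and 1.61%, with overlapping sets, and the helicase DDX39A at 3.53 and 3.92% against 3.16 and 1.38%. Without library 2 of the second set the differences of SF3B3, CWC25 and DDX39A, 1.67, 6.03 and 1.46 points, became 1.10, 2.88 and 0.567, and that of CWC25 became 2.82 without library 1 of the first set. The lower ones were ISY1, described above, and the splicing factor SLU7, at 1.94 and 0.673% against 4.71 and 4.45%.

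**Figure D5:**
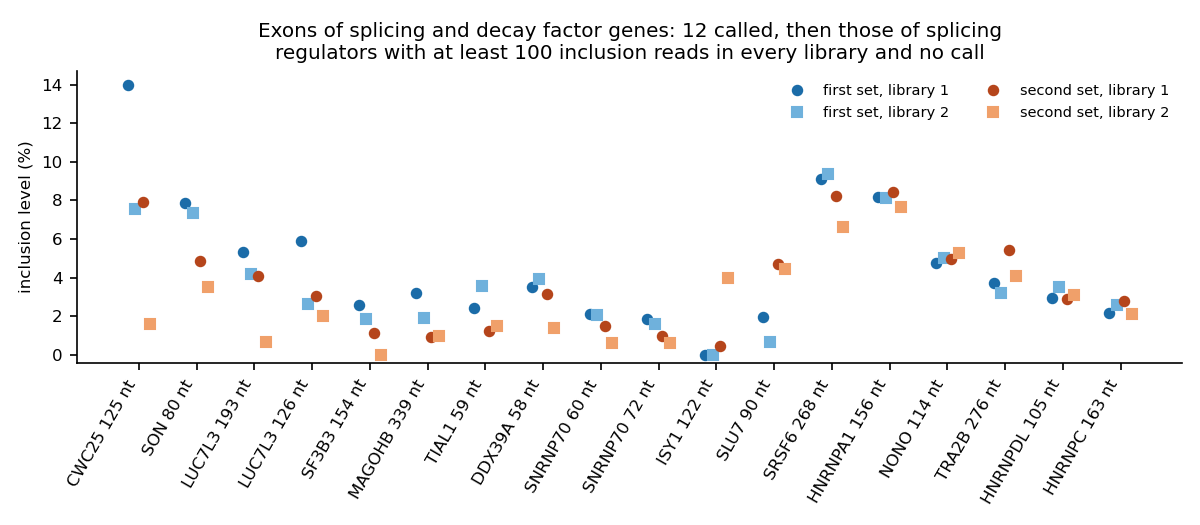
Inclusion level (y axis, %) in each library for 12 called exons of splicing regulator, core spliceosome and decay factor genes, ordered by their difference, followed by 6 exons of splicing regulators with at least 100 inclusion reads in every library and no call. Blue shades are the first set and orange shades the second; of the called exons shown, ISY1 and SLU7 are lower in the first set.

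Genes of nonsense-mediated decay and the exon junction complex held 14 exons. Of these, 2 (14.3%) were called, beside 5.57% of all 3305 exons, and both were higher in the first set. MAGOHB, of the exon junction complex, was named after its values were seen, with a 339-nt exon at 3.23 and 1.92% against 0.946 and 0.958%. Its difference of 1.62 points became 0.968 without library 1 of the first set, and its FDR is 0.00296 in the authors' deposited table. Genes of small nucleolar particles and ribosome assembly, the class nearest to SNORD89, held 11 exons with 0 called, and 9 of the 11 carried an in-frame stop. NHP2L1, which encodes a protein that binds both box C/D RNAs and the U4 RNA, had 3 of them. Its 232-nt exon was at 3.67 and 4.77% against 4.29 and 4.73%, with overlapping sets. The median level of the 11 exons was 0.466%, and no exon of any gene was called under 1%. Noncoding host genes of small nucleolar RNAs held 2 exons, in ZFAS1 and SNHG16, and neither was called.

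The called exons of the other gene families were named after their values were seen. The share called was 11.8% in proteasome genes, 9.52% in helicases and in chaperonin and DNAJ genes, 8.33% in solute carriers, 5.26% in zinc finger genes and 2.78% in the mitochondrial ribosome, beside 5.57% of all 3305 exons and 5.72% of all events. Among the 26 exons of cytosolic ribosomal proteins, 51 of oxidative phosphorylation and 32 of translation factors, 0 were called. Their median levels were 0.0243, 0.452 and 0.184%, and no exon of any gene was called under 1%. The 36 of the mitochondrial ribosome held 1 call, MRPL48, at 1.41 and 2.66% against 1.67 and 0%. Proteasome genes held 17 exons with 2 called, PSMA2 at 1.35 and 1.22% against 1.95 and 3.14% and PSMD6 at 1.56 and 1.20% against 2.11 and 2.33%, both lower in the first set. Solute carriers held 36 with 3 called, all lower in the first set: SLC25A15, described above, SLC20A1 and SLC25A17. SLC20A1, a phosphate transporter gene, was at 1.60 and 0.392% against 2.27 and 11%, and SLC25A17, a peroxisomal carrier gene, at 2.24 and 0% against 0.462 and 4.31%, with overlapping sets. The SLC20A1 difference of -5.64 points became -1.28 without library 2 of the second set, and the SLC25A17 difference of -1.26 points turned to 0.660, and became -0.140 without library 2 of the first set. Zinc finger genes held 19 exons with 1 called, ZNF638 at 0.384 and 1.02% against 7.97 and 1.11%, whose difference of -3.84 points became -0.406 without library 1 of the second set. Helicases held 21 with 2 called, DDX31 and DDX39A, and chaperonin and DNAJ genes 21 with 2 called, CCT4 and DNAJC8, at 1.20 and 1.36% against 1.95 and 3.98%. Without library 2 of the second set the differences of MRPL48, PSMA2 and DNAJC8, 1.20, -1.26 and -1.68 points, became 0.360, -0.663 and -0.669, and that of MRPL48 became 0.572 without library 2 of the first set.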

How the data were processed

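RNA from 293T cells was sequenced after poly(A) selection, in 2 libraries per group. The submitters' processing notes name cutadapt, STAR and the hg19 build; versions and the splicing caller's settings are not given in the sources used here. The authors deposited 1 table of skipped exon events whose headers are those of rMATS, with inclusion and skipping junction reads per library as comma-joined cells. Per the file headers, it also holds the p-value and FDR of each event and, treated here as a score, the difference in inclusion level between the sets as deposited.

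Inclusion levels were recomputed from the reads and form lengths and differed from the deposited levels by at most 0.0005. Rows were filtered on a mean of at least 100 reads, inclusion under 0.1 and length, and the row with most reads was kept per exon. The members and the gene lists were chosen with earlier results of these data known. Named exons were the 8 called exons with sets apart and the largest log2 ratio (pseudocount 0.5) in each direction, the 10 deepest, up to 12 of splicing regulators by reads, the quasi-binomial calls, and those beside the thresholds. The replicate test was a quasi-binomial F test with dispersions moderated by limma 3.58.1 in R 4.3.3 and not set under 1, on the 54503 events with a mean of at least 20 reads, with Benjamini-Hochberg adjustment over all of them; it was tested on simulated data. Its prior, from events with at least 20 reads of the rarer form, was set on simulated data after the table was seen. The test takes its error from the spread between libraries. Exons were matched by their spacing to GENCODE release 29 (GRCh38), for annotation and sequence only; coordinates are hg19. Reads without molecular identifiers are not independent molecules, so intervals cover counting error only. Tables were handled with pandas 2.3.3 in Python 3.11.15. Some genes and sequences that met these rules are not reported here.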

Additional observations from a re-analysis of the deposited data

How the results depend on the processing

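No paired analysis was possible because the table's cells carry no replicate numbers that tie a library to a label. The number of exons with an FDR under 0.05 in the authors' deposited table, 184, became 280 with a minimum of 50 reads, 97 with 200 reads, 80 at an FDR under 0.01 and 52 with a difference of at least 0.05; the causes lie in the filters themselves. It kept 171 to 184 with its direction when a library was left out. The 2 exons that also differed by 0.1 became 52 at 0.05 and 157 with a 2-fold ratio of mean levels instead. The quasi-binomial count of 1 was 0 by limma with trend, 45 with precision weights, and 0 with a prior from all events, an alternative chosen after seeing the data. It ranged from 0 to 73 when a library was left out, where the lone library of a set is assumed to vary like the others: it was 73 without library 1 of the second set and 0 without library 1 of the first. A planned count model of inclusion and skipping reads with library terms was not run. The number of rarely included exons was 2276 to 4288, and the percentage of calls above the second set, 54.9%, was 51.9 to 61.8% under its alternatives. Of 41 named differences, 17 moved beyond the spread between libraries without form lengths, and 0 changed sign. With a library left out, 16 of the 41 changed sign, 0 of them among the 18 called in the authors' deposited table. The sets of all 18 were apart, so leaving out a library could not change their sign. With 2 libraries a set, and with 1637 exons under a mean of 5 inclusion reads, small differences may have been missed.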

Other observations

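Several called exons outside the naming rule were apart between the sets and barely moved without library 2 of the second set. They were chosen after their values were seen, and their differences without each other library are not given here. NSL1, a kinetochore gene, had an 85-nt exon at 8.34 and 10.8% against 2.91 and 2.98%, 3.24-fold higher in the first set, where the authors' deposited table lists an FDR of 0.000109. CRELD2, an endoplasmic reticulum chaperone gene, had a 147-nt exon at 5.45 and 2.96% against 1.63 and 0.998%, 3.203-fold higher, with an FDR of 3.25e-05 there. BRD9, of a SWI/SNF chromatin complex, had an exon with 2 ends, and the 150-nt form was at 5.79 and 6.13% against 1.56 and 1.28%, with an FDR of 0.000305 there. WARS, the tryptophan tRNA ligase gene, had a 124-nt leader exon at 8.68 and 12.7% against 2.87 and 3.66%, with an FDR of 0.000158 there.

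The calls lay in 170 genes, of which 14 held 2 called exons and 3 of these, CANT1, IDS and SUGP2, held calls in both directions. In IDS the 130-nt exon was at 14.0 and 12.1% against 9.23 and 3.89%, whereas the 103-nt exon was at 4.52 and 0.521% against 3.90 and 25.7%. The second difference, -12.3 points, became -1.38 without library 2 of the second set.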
